A study of Mus musculus with 4 samples.

Results

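Contractile smooth muscle cells of the mouse aorta that carried little or no RNA of Rgs5 numbered 4363 of the 70795 barcodes in 4 single-cell libraries. A member had at least 2000 unique molecular identifiers (UMIs, each counting 1 captured RNA molecule) and at most 10% mitochondrial UMIs, which 27278 barcodes passed. It also had at least 3% of its UMIs on Acta2, Tagln, Myh11 and Myl9 together, at most 1 UMI of Rgs5, at most 2 UMIs of the macrophage complement genes C1qa, C1qb and C1qc, and at most 1 UMI of the endothelial genes Pecam1 and Cdh5. These gene counts chose the cells, so the values of the genes in the gate are given as description and support nothing.

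The study had 4 groups with 1 library each. On normal diet these were WT and then LysM-DKO, and on western diet WT/ApoE-/- and then LysM-DKO/ApoE-/-. Values below follow this order. The series title names epsins, endocytic adaptor proteins, as the target, while the sample labels give the double knockout without naming its genes. LysM is the lysozyme 2 gene, whose promoter drives Cre recombinase in myeloid cells, so smooth muscle is not the cell type in which this driver acts. Both western diet groups lack ApoE and both normal diet groups carry it, so diet and ApoE genotype cannot be told apart. Age, and whether aortas were pooled, are not given in the labels. The question the design addresses here is whether wall cells that keep their contractile program differed with the myeloid genotype or with diet and ApoE together.

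Contractile smooth muscle cells shorten when calcium and calmodulin activate myosin light chain kinase, and their program is switched on by serum response factor with its cofactor myocardin at CArG boxes. In atherosclerosis some of them lose this program and turn on matrix and inflammatory genes, a state called modulated. Rgs5 is a regulator of G protein signalling that is abundant in pericytes and in some arterial smooth muscle, and Hox genes and cardiac transcription factors record where along the body a vessel wall arose.

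Promoters of 3 contractile genes are shown because each holds a CArG box, the site of serum response factor, in capitals. They are RefSeq promoter sequences on GRCm38.p6, 5′ to 3′ on the strand of the gene, cut to the bases outside annotated exons. Myl9, the regulatory myosin light chain, lies at chr2:156775214-156775419 on the plus strand, with the box starting 161 bases before the start site. Vcl, which encodes vinculin of the cell attachment plaques, lies at chr14:20929148-20929397 on the plus strand, with the box 227 bases before the start site. Actc1, the cardiac alpha actin, lies at chr2:114052888-114053125 on the minus strand, with the box 47 bases before the start site.
Myl9: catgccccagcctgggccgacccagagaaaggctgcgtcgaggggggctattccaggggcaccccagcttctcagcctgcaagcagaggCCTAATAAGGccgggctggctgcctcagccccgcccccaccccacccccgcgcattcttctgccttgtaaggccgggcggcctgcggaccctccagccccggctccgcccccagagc
Vcl: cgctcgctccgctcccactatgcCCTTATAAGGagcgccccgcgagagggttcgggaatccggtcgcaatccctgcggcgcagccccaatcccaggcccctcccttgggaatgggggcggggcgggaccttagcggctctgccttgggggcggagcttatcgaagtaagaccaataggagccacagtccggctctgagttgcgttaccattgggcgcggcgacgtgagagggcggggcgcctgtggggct
Actc1: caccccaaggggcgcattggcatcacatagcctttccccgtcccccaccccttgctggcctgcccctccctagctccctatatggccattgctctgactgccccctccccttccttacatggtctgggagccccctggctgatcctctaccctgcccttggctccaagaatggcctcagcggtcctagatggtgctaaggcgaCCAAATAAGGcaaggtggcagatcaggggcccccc
The box was searched on both strands in the 250 bases before the start site. It was present in 482 of 32851 promoters (1.47%), and in 4 of the 30 promoters of the 26 contractile genes with an entry (13.3%). That set was the gate genes and the contractile list, with Actc1 added from outside the list. Actc1 is among the genes with a box, so the 13.3% depends in part on this choice. The match describes the letters only.

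Members made up 15.0% (95% exact binomial interval 14.1 to 15.9), 8.64% (7.95 to 9.38), 17.4% (16.5 to 18.3) and 21.3% (20.4 to 22.3) of the barcodes past the UMI and mitochondrial gates, that is 943, 526, 1241 and 1653 cells. Intervals on shares and levels cover counting error only, and with 1 library per group no difference between groups was tested. Among all smooth muscle cells that passed the other gates, those low in Rgs5 were 52.1, 43.9, 38.6 and 29.3%. The rest, 868, 671, 1976 and 3983 cells with at least 2 UMIs of Rgs5, are called Rgs5-high here. Shares of cells in digested tissue also move with the loss and capture of other cell types.

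The median depth of the members was 8111, 7656, 6023 and 6855 UMIs, lower in both western diet libraries. The library of WT/ApoE-/- on western diet stood apart in other ways: 1081 of its barcodes lay between 1000 and 2000 UMIs and passed the remaining gates, against 8 to 27 elsewhere, and ribosomal protein genes took 6.49% of member UMIs against 8.39 to 8.90%. The sums over members held 7948669, 4079569, 7665630 and 11743105 UMIs, so a count of 0 allows up to 0.377, 0.735, 0.391 and 0.255 CPM. CPM is the unit of all levels below: the UMIs of a gene summed over the cells of a class in a library, scaled to the same total number of UMIs in every sum. Of the barcodes of members, 1 was shared between 2 libraries. Xist stood at 804, 783, 0.913 and 0.426 CPM, high as in female cells on normal diet and near 0 on western diet, and the Cell Ranger version differed along the same line. Sex and software version therefore cannot be told apart from diet and ApoE.

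The label was checked against markers outside the gate. All 25 listed genes of the contractile apparatus were detected in every library, with summed levels of 36837.5, 37250.3, 34723 and 35820.3 CPM in members against 7908, 7796, 6524 and 11723 in lymphocytes of the same libraries, cells that should lack them. Markers of other cells varied by list. The 14 macrophage genes summed to 38.8 to 103 CPM and the 12 endothelial genes outside the gate to 77.9 to 101. The 14 fibroblast genes summed to 1161, 1195, 1452 and 1042 CPM in members and to 773, 1257, 1464 and 2109 in lymphocytes, and the 10 Schwann and adipocyte genes to 258 to 416 in members. The 20 pericyte and Rgs5-associated genes, several of which smooth muscle also expresses, summed to 1957, 2136, 2076 and 1810 CPM in members and to 1939, 2051, 2010 and 1796 in Rgs5-high cells. Of the pericyte markers in members, Kcnj8 stood at 13.8 to 26.5 CPM, Abcc9 at 154 to 243 and Cspg4 at 244 to 298. Steap4 stood at 1.13 to 4.17, Higd1b at 0.130 to 1.47 and Vtn at 0 to 0.490. Lymphocyte genes summed to 46.4, 154, 21.7 and 0.852 CPM, and globin and other erythroid genes to 925, 994, 77.2 and 5.20, and both tracked the library in Rgs5-high cells as well. Contractile RNA in lymphocyte barcodes can be free RNA, or can come from doublets, barcodes that hold a lymphocyte and another cell. Doublets were not removed, and lymphocytes had no contractile limit. The part of free RNA and of doublets in these sums was not tested.

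The gate genes themselves, as description, stood at 22518, 22034, 23346 and 21223 CPM for Acta2, the smooth muscle actin, and at 5643, 5316, 6422 and 6615 for Myh11, the smooth muscle myosin heavy chain. Rgs5 was 43.9, 62.5, 54.4 and 59.4 CPM in members and 2536, 2124, 2925 and 3665 in Rgs5-high cells. Of the members, 63.0, 51.5, 66.4 and 57.8% had no Rgs5 UMI at all. After thinning each cell to 2000 UMIs, 9.01, 13.3, 14.1 and 13.3% of members had an Rgs5 UMI against 25, 32.8, 19.8 and 33.3% of lymphocytes, which had no limit on Rgs5. Median depths before thinning were 8111, 7656, 6023 and 6855 UMIs in members and 3543, 3820.5, 2147.5 and 2802.5 in lymphocytes, and 932, 1242, 283 and 21 lymphocytes were deep enough to thin.

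Cells just outside the cutoffs still carried contractile RNA. Just below the contractile limit, at 2.5 to 3% of UMIs, lay 137, 88, 123 and 147 cells, with calponin (Cnn1) at 1197, 1183, 904 and 1173 CPM. Just above it, at 3 to 3.5%, lay 205, 101, 170 and 251 cells, with Cnn1 at 1461, 1391, 1089 and 1299. The proteoglycan gene Dcn in these bands was 110, 878, 1702 and 319 below the limit and 142, 194, 1087 and 162 above it, so the lower edge of the gate in WT/ApoE-/- held cells rich in matrix RNA. At the Rgs5 cutoff, 349, 255, 417 and 698 cells had 1 UMI and 139, 118, 244 and 432 had 2 UMIs.

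Among cells that had all passed the contractile limit, expression of the contractile program was close across the 4 libraries. The gate left out cells low in this program, so the closeness cannot show whether the program was kept in the wall. Tropomyosin 2 (Tpm2) stood at 2959, 3184, 3804 and 3660 CPM and myosin light chain kinase (Mylk) at 1476, 1533, 1555 and 1643. Calponin (Cnn1), which restrains actomyosin, was 1754, 1734, 1518 and 1625 CPM. Leiomodin (Lmod1), an actin filament nucleator, was 792, 771, 746 and 775, and the cofactor myocardin (Myocd) was 296, 285, 292 and 274. No library was low in these genes as a set. For Cnn1 the genotype ratio, LysM-DKO over WT on the log2 scale, was -0.02 (-0.06 to 0.02) with normal and 0.10 (0.06 to 0.13) with western diet. Its diet ratio, western over normal diet, was -0.21 (-0.24 to -0.17) for WT libraries and -0.09 (-0.13 to -0.05) for LysM-DKO libraries.

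**Figure D1:**
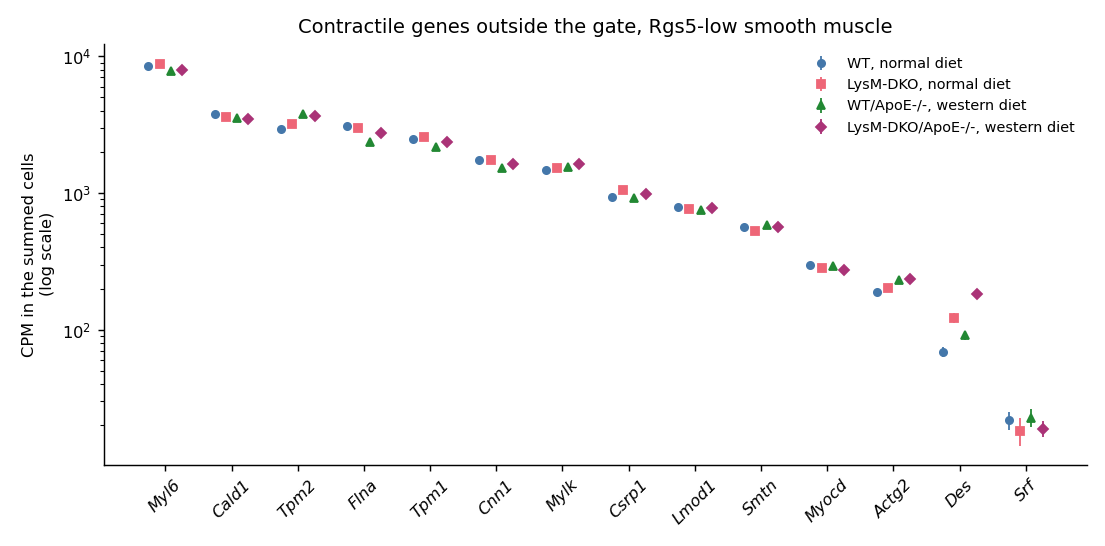
Levels of contractile genes outside the gate in the 4 libraries, in CPM of the summed Rgs5-low cells on a log axis, with exact Poisson 95% intervals. All cells had passed the contractile limit. The libraries lie close together for most genes, such as Cnn1 between 1518 and 1754, and furthest apart for Des, between 68.6 and 183.

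Over the 25 contractile genes the median log2 ratio was -0.03 and 0.03 for genotype on normal and western diet, and -0.05 and 0.01 for diet in WT and LysM-DKO. Over all 3114 genes with a mean of at least 50 CPM the medians were -0.01, -0.01, 0.03 and 0.02. Of all these genes 48.6, 48.8, 52.9 and 53.3% were higher in the same 4 contrasts, the shares to set beside counts of list genes below. A gene was called apart when its ratio passed 2 fold with an interval that excluded 1, which held for 0.417 and 1.19% of these genes by genotype and 3.79 and 1.7% by diet. Of the contractile genes, Des was called, by genotype on western diet, and none in the other contrasts. Des, the intermediate filament desmin, was 68.6, 122, 91.6 and 183 CPM, higher in each LysM-DKO library than in the WT library of the same diet.

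Most genes of calcium handling and most regulators of contractile genes were also close. The 21 or fewer measured genes of calcium handling had medians of 0.03, -0.04, 0.14 and 0.06 in the same 4 contrasts, and none of the 13 at 50 CPM or more was called. Under 50 CPM, Kcna5 passed 2 fold by genotype on normal diet, and Kcna5 and Cacna1h by diet in LysM-DKO. The calcium pump Atp2a2 stood at 742, 739, 788 and 837 CPM and the L-type calcium channel Cacna1c at 44.9, 45.6, 44.4 and 50.5. Among 19 regulators the medians were -0.14, -0.04, -0.14 and -0.03. Klf4, a zinc finger factor that opposes myocardin, was 659, 530, 252 and 340 CPM, with a log2 diet ratio of -1.39 (-1.46 to -1.31) in WT, past 2 fold, and -0.64 (-0.72 to -0.56) in LysM-DKO.

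Rgs5-low and Rgs5-high cells of the same library differed in Hox and cardiac factor genes, vasoactive receptors and fibronectin. Most contractile genes did not pass the test, and neither did most of all genes tested. Both classes passed the same gates and came from the same 4 aortic digests, so each library served as its own pair, with n = 4. In edgeR's quasi-likelihood test with the library as a block and Benjamini-Hochberg adjustment, 335 of 12309 genes were higher in Rgs5-low cells (2.72%) and 264 were lower (2.14%), together 4.87%, and 1858 had an unadjusted p under 0.05. Rgs5 and the other gate genes were kept out of these calls. The labels do not say how many animals each library holds, and the 4 libraries differ in genotype, diet and sex. The p-values measure the spread of the difference over these libraries.

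Of the position list, 3 transcription factors outside the Hox clusters rose in Rgs5-low cells. Hand2, a helix-loop-helix factor of heart and neural crest development, was 28.3, 37.0, 24.3 and 50.2 CPM against 11.9, 13.1, 7.46 and 11.1 in Rgs5-high cells. The groups did not overlap, and the log2 difference was 1.79 ± 0.12 (SE, edgeR adjusted p = 8.04e-07). The transcript Hand2os1, read from beside Hand2 on the opposite strand, differed by 1.60 ± 0.20. Hand2 and Hand2os1 were counted as separate genes. How reads were assigned between them is not given in the sources used here, and whether they changed independently was not tested. Tbx20, a T-box factor of the heart, was 16.6, 17.9, 25.2 and 15.9 CPM against 7.25, 8.52, 10.5 and 5.54, a log2 difference of 1.31 ± 0.10. Twist1, another helix-loop-helix factor, differed by 0.33 ± 0.06 (edgeR adjusted p = 0.00667).

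Of the 10 genes ranked highest by fold, Tnnt2, Pln and Actc1 are best known from heart muscle. Cardiac troponin T (Tnnt2) was 47.8, 86.5, 78.3 and 96.1 CPM against 20.7, 54.3, 24.2 and 34.1, a log2 difference of 1.33 ± 0.10 (edgeR adjusted p = 2.49e-06). Phospholamban (Pln), the brake on the calcium pump, was 23.5, 46.8, 28.4 and 23.8 against 12.9, 13.3, 10.4 and 7.78, and was higher in Rgs5-low cells in each library. Cardiac actin (Actc1), whose promoter is shown above, was 31.1 and 31.6 CPM on normal diet but 1.43 and 0.681 on western diet, against 9.49, 11.2, 0.481 and 0.638 in Rgs5-high cells. Its log2 difference was 1.5 ± 0.17 (edgeR adjusted p = 5.48e-05), and it was near the limit of a count of 0 in both western diet libraries. The phosphodiesterase Pde1c, which calcium and calmodulin activate, was 13.2, 7.84, 2.87 and 13.1 CPM against 3.30, 2.56, 1.12 and 2.75, higher in each library. Ephb2, a receptor tyrosine kinase, and the matrix protease Adamts4 also ranked among the 10.

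Hox genes were lower in Rgs5-low cells, by more at higher numbers. Hox genes numbered 1 to 5 pattern the front of the body and those of higher number the rear. Of 10 tested genes numbered 1 to 5, 4 fell and none rose, with a median log2 difference of -0.19. Of 8 numbered 6 to 8, 8 fell, with a median of -1.33, and of 5 tested among 9 to 13, 5 fell, with a median of -3.48. These medians are set beside 0.00 over all genes tested. The whole position list, with the cardiac factors, had 3 genes higher and 15 lower of 24 tested.

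Hoxc10 was 0.755, 1.96, 1.43 and 0.511 CPM in Rgs5-low cells against 23.9, 19.6, 23.7 and 26.1 in Rgs5-high cells, a log2 difference of -4.58 ± 0.20 (edgeR adjusted p = 6.79e-09). Lymphocytes held 2.53, 0.619, 3.43 and 0 CPM, so the level in Rgs5-low cells was near that in lymphocytes. Hoxa10 was 0.881, 1.72, 1.30 and 1.53 against 20.2, 13.8, 22.1 and 23.3. Hoxa3, from the front end of its cluster, was 28.6, 31.6, 27.3 and 27.3 CPM against 34.3, 31.7, 28.9 and 31.5, a difference of -0.15 ± 0.06 that did not pass (edgeR adjusted p = 0.255). Hoxa7, between them, fell by 0.92 ± 0.10 on the log2 scale. Of the other genes ranked lowest, the receptor tyrosine kinase gene Kit was 2.14, 0.980, 2.87 and 0.937 CPM against 6.86, 2.73, 16.2 and 11.4 in Rgs5-high cells. Hoxd8, Hoxa9, Hoxc9, Hoxc8, Plcxd3 and Pde6h were in that ranking too. The labels give the tissue as aorta only, and which segments or side branches each class came from was not tested.

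**Figure D2:**
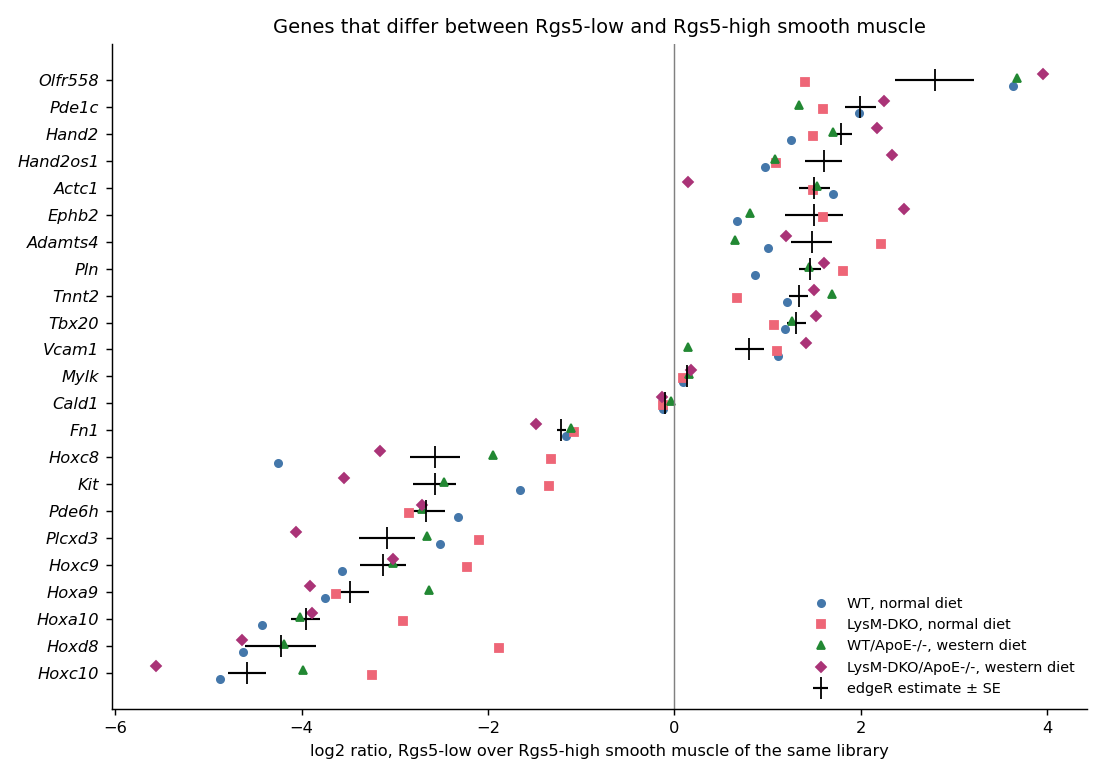
Log2 ratio of Rgs5-low over Rgs5-high smooth muscle for the genes named by rank, with Vcam1, Mylk, Cald1 and Fn1, as coloured points per library and the edgeR estimate ± SE as black bars. Hand2 lies at 1.79 and Hoxc10 at -4.58, while Mylk lies at 0.13.

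The difference was graded over Rgs5 counts for some genes and stepped for others. In cells with 0 UMIs of Rgs5, Hand2 was 27.0, 37.0, 27.7 and 52.7 CPM, and in cells with 5 to 9 it was 9.36, 8.96, 6.80 and 14.7. Hoxc10 was 0.205, 2.47, 0.975 and 0.148 at 0 UMIs, 4.68, 6.27, 6.09 and 2.20 at 5 to 9, and 45.4, 36.8, 38.3 and 40.4 at 10 or more. Hoxc10 RNA was carried mainly by the cells richest in Rgs5. Hoxa3 was 29.7, 33.6, 25.2 and 27.8 at 0 UMIs and 32.8, 29.8, 30.5 and 32.0 at 10 or more. These bins share the cells of the test and are given as description.

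**Figure D3:**
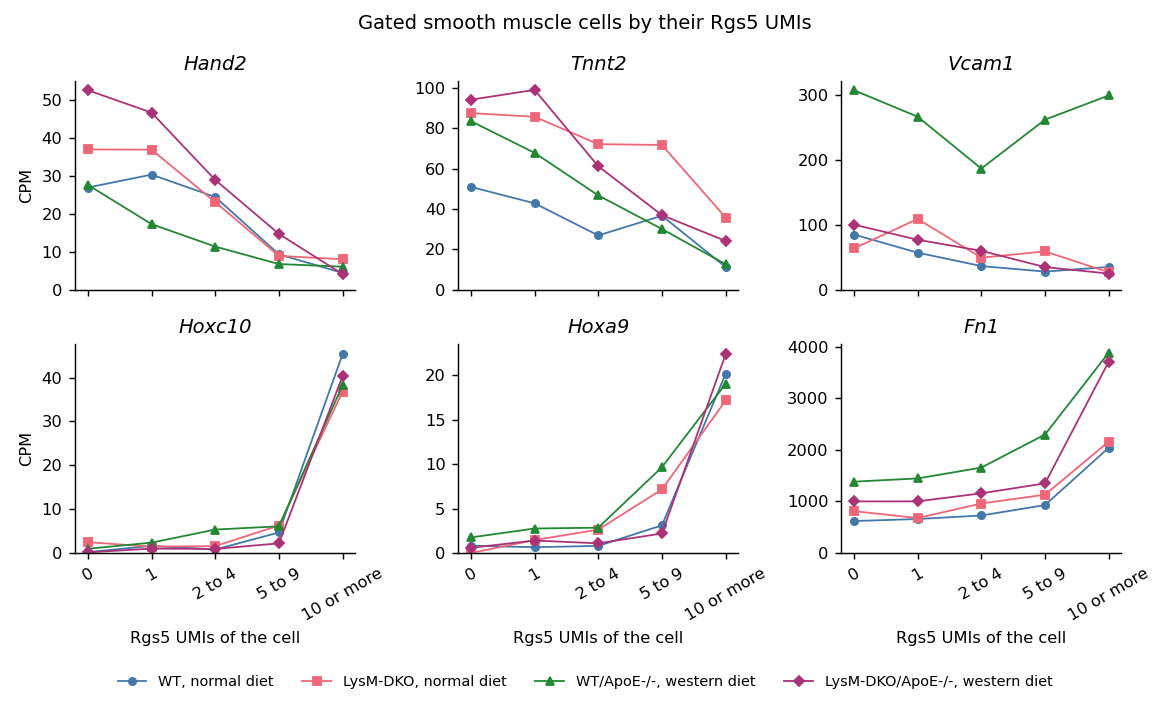
Levels of 6 genes in CPM (vertical axes start at 0) over cells grouped by their Rgs5 UMIs, 1 line per library. Hand2 and Tnnt2 decline over the bins, Fn1 climbs from 620 to 1385 at 0 UMIs to 2043 to 3888 at 10 or more, and Hoxc10 lies under 7 until the last bin.

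Several receptors for vasoactive signals were lower in Rgs5-low cells. Of 22 tested genes of this list 7 fell and 2 rose, with a median of -0.13. The ATP-gated channel P2rx1 was 13, 31.9, 33.8 and 26.6 CPM against 26.2, 53.8, 71.2 and 70.3, lower in each library, with a log2 difference of -1.14 ± 0.08 (edgeR adjusted p = 1.44e-06). The prostaglandin E receptor Ptger3 was 4.15, 4.90, 5.87 and 2.81 against 17.5, 9.03, 21.8 and 13.2. The alpha-1A adrenergic receptor Adra1a differed by -1.62 ± 0.24 and the angiotensin receptor Agtr1b by -1.77 ± 0.34, both at under 5 CPM in every sum. Agtr1b was lower in 3 of 4 libraries, and in LysM-DKO on normal diet it was 1.72 CPM against 1.53. The CGRP receptor subunit Calcrl fell by 0.60 on the log2 scale.

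The pair that rose makes the nitric oxide receptor. Gucy1a1, a subunit of soluble guanylate cyclase, was 333, 284, 262 and 299 CPM against 262, 224, 220 and 230, a log2 difference of 0.33 ± 0.03 (edgeR adjusted p = 1.65e-05), and its partner Gucy1b1 passed too. Prkg1, the kinase that cyclic GMP activates, was 114, 117, 166 and 151 against 125, 137, 175 and 171 and fell by 0.15. Among 16 tested pericyte and Rgs5-associated genes 3 rose and 3 fell. The ATP-sensitive potassium channel pair Kcnj8 and Abcc9, known from pericytes, fell by 0.55 and 0.23, and the odorant receptor Olfr558 was higher by 2.79 ± 0.43 at 0.755, 6.86, 3.52 and 2.30 CPM.

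Matrix genes moved both ways. Fibronectin (Fn1) was 635, 745, 1405 and 1002 CPM against 1424, 1576, 3031 and 2803 in Rgs5-high cells, lower in each library, with a log2 difference of -1.21 ± 0.05 (edgeR adjusted p = 6.16e-09). Tenascin C (Tnc) fell by 1.0 and versican (Vcan) by 0.47. Asporin (Aspn), a small proteoglycan, was 130, 158, 108 and 139 against 82.3, 118, 65.0 and 60.1 and rose by 0.80, and the matricellular gene Sparcl1 rose by 0.82. The collagen and proteoglycan list had 4 higher and 6 lower of 26, and the elastic fibre list 4 and 4 of 27. Vcam1, an adhesion receptor for leukocytes, rose by 0.80 ± 0.15 at 74.4, 86.5, 294 and 90.4 CPM against 34.4, 40.4, 265 and 34.1.

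Lipid handling genes on the list were higher where they passed. Of 22 tested, 5 rose and none fell: Abca1, Apoe, Scd1, Lpl and Cav1. Lipoprotein lipase (Lpl) was 20.5, 28.9, 20.9 and 26.7 CPM against 12.8, 11.6, 12.3 and 6.78, a log2 difference of 1.27 ± 0.17 (edgeR adjusted p = 0.000279). Caveolin 1 (Cav1), the coat protein of surface caveolae, was 535, 569, 426 and 483 against 441, 446, 351 and 402. Apoe can be read in the normal diet libraries only, at 85.9 and 123 against 47.9 and 82.8, and lymphocytes there held 240 and 290. The modulated list had 3 higher, Vcam1, Klf4 and Acan, and 5 lower of 26. The metallothioneins Mt1 and Mt2, which bind zinc, rose by 0.45 and 0.51.

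Contractile genes had a median log2 difference of 0.00 between the classes, which had both passed the same contractile limit. Of 25 tested 2 rose and 3 fell, a larger share than the 4.87% of all genes tested that passed. Mylk rose by 0.13 ± 0.02 (edgeR adjusted p = 0.00384), while Cald1, Des and Tes fell by 0.10, 0.35 and 0.47. Cnn1 differed by -0.01 ± 0.02 (edgeR adjusted p = 0.886) and Myocd by 0.07 ± 0.04 (edgeR adjusted p = 0.362), which does not show that they are equal. None of 19 clock genes, 19 genes of respiration or 13 endocytosis genes passed. A share of 4.87% would give few calls in lists this short.

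The count of calls moved with the settings. With the Rgs5 cut and the sums both taken after thinning to 2000 UMIs it was 165 higher and 190 lower, and without the library in the model 1 and 11. At a contractile share of at least 5% it was 158 and 149, and DESeq2 called 140 and 130. Without the WT normal diet library it was 149 and 173, and without the LysM-DKO/ApoE-/- western diet library 169 and 162. Leaving out the WT/ApoE-/- western diet library, the one that stood apart, gave 388 and 274.

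Between genotypes the epsin genes were measured first. Epn1 was 31.3, 36.0, 25.4 and 23.6 CPM and Epn2 104, 117, 133 and 90.4 in members, neither past 2 fold. A 3′ tag outside a deleted stretch checks nothing, and these cells are not those of the Cre driver. Lyz2, the driver locus, was 2.64, 1.23, 7.57 and 0.341 CPM in members. Apoe was 85.9, 123, 1.04 and 1.11, so both western diet libraries carried almost none, as their labels state.

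LysM-DKO and WT libraries differed in few genes. On normal diet 9 of 3114 genes were higher (0.289%) and 4 lower (0.128%) in LysM-DKO past 2 fold, and on western diet 21 were higher (0.674%) and 16 lower (0.514%). Of the 21, 10 were ribosomal protein genes, of 79 tested, whose share was lowest in WT/ApoE-/-, the library that stood apart. Of the 16, 3 were globin genes and 5 were on the list of modulated genes. The part of that library in these counts was not tested. Leaving out ribosomal protein, globin, immunoglobulin, predicted and sex-linked genes, only Zbtb16 was higher past 2 fold on both diets. Zbtb16, a zinc finger repressor induced by glucocorticoids, was 92.0, 225, 119 and 249 CPM. Its log2 ratios were 1.29 (1.15 to 1.43) and 1.07 (0.96 to 1.18). In Rgs5-high cells it was 85.4, 234, 117 and 234, so both classes showed the same split by library. With the same genes left out, only Sncg was lower past 2 fold on both diets, and other cells of the libraries held more of it.

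The glucocorticoid-responsive list did not move as 1. Fkbp5, a chaperone of steroid receptors, was 6.79, 25.2, 24.1 and 60.1 CPM, with log2 genotype ratios of 1.89 (1.41 to 2.40) and 1.31 (1.08 to 1.56). Tsc22d3 was 14.7, 32.1, 18.8 and 14.6, higher in LysM-DKO on normal diet and lower on western diet. The list median was 0.14 on normal diet with 10 of 13 genes higher, and 0.23 on western diet with 9 of 14 higher.

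Mfap4 was also in the ranking of genes higher in LysM-DKO on both diets. Mfap4, a microfibril protein, was 226, 452, 317 and 703 CPM, with log2 ratios of 1.0 (0.91 to 1.09) and 1.15 (1.08 to 1.22). The small heat shock gene Hspb2 was 112, 163, 116 and 182. In each of these both LysM-DKO libraries lay above both WT libraries. Cd59a, which blocks the complement attack complex, followed with 62.5, 90.7, 74.9 and 113, and Ccdc42 with 55.2, 77.2, 40.6 and 57.9.

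**Figure D4:**
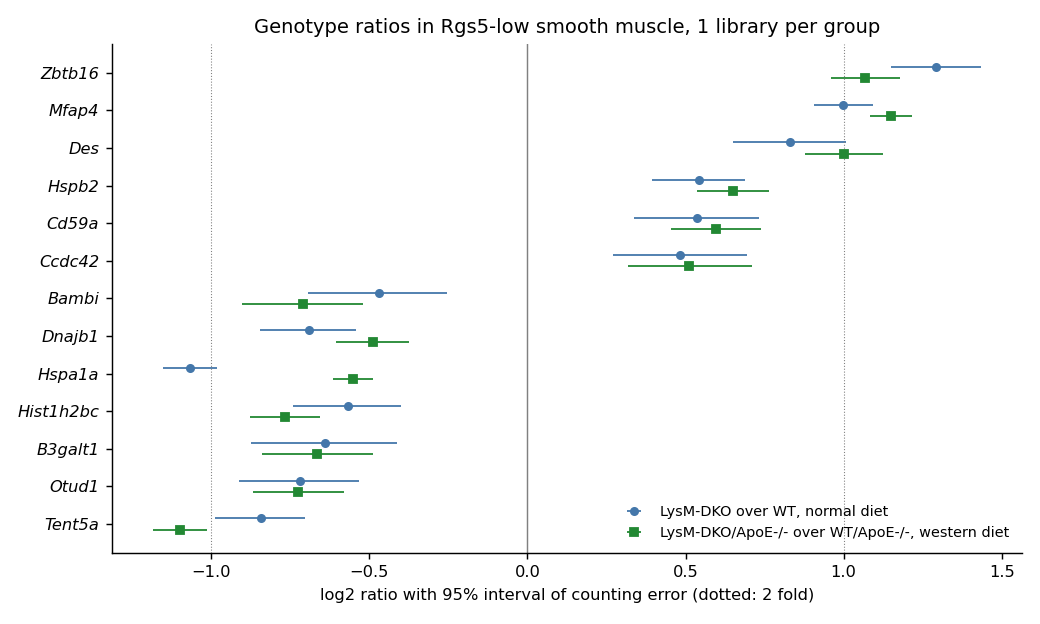
Log2 ratios of LysM-DKO over WT in Rgs5-low cells on normal diet (blue circles) and western diet (green squares) for genes ranked by the smaller of both ratios, with 95% intervals of counting error. Zbtb16 lies at 1.29 and 1.07, and Tent5a at -0.84 and -1.10.

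Genes lower in LysM-DKO were led by Tent5a, a poly(A) polymerase, at 229, 128, 359 and 168 CPM, with log2 ratios of -0.84 (-0.99 to -0.70) and -1.10 (-1.18 to -1.01). The deubiquitinase Otud1 was 122, 74.3, 107 and 64.8 CPM. In the same ranking were the inducible chaperone Hspa1a at 702, 335, 516 and 352 and its cochaperone Dnajb1 at 183, 113, 154 and 110. B3galt1, Hist1h2bc and Bambi, a decoy receptor for TGF-beta family ligands, were in the ranking too. Immediate early and heat shock genes respond to tissue digestion. Of the 25 on the list 24 were lower in LysM-DKO on normal diet, with a median of -0.29, while 12 were lower on western diet, with a median of 0.00. The part of handling in these values was not tested.

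Between diets more genes were apart, and more of them were lower. In WT 24 of 3114 genes were higher (0.771%) and 94 lower (3.02%) in the western diet library past 2 fold, and in LysM-DKO 14 were higher (0.45%) and 39 lower (1.25%). Of 79 ribosomal protein genes, 17 were among the lower genes in WT and 0 in LysM-DKO. The lower genes of each genotype also held 3 globin genes and 1 sex-linked gene, and the higher genes 1 sex-linked gene. Leaving out ribosomal protein, globin, immunoglobulin, predicted and sex-linked genes, 4 were higher and 22 lower past 2 fold in both genotypes. Within LysM-DKO neither library was the one that stood apart.

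Myc, a growth-related transcription factor, ranked first among the lower genes. It was 104, 90.0, 22.6 and 20.6 CPM, with log2 diet ratios of -2.20 (-2.45 to -1.97) for WT libraries and -2.13 (-2.37 to -1.89) for LysM-DKO libraries. The NF-kappaB inhibitor Nfkbia was 1303, 1265, 560 and 575. Csrnp1 was 254, 225, 72.8 and 89.0, Ppp1r10, a phosphatase 1 regulator, 453, 412, 149 and 176, and the insulin receptor substrate Irs2 261, 195, 105 and 92.1. Wsb1 and Fbxl18, of ubiquitin ligases, were 406, 361, 171 and 154 and 68.4, 76.7, 28.7 and 32.1. In all 7 both western diet libraries lay under both normal diet libraries.

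The immediate early list followed in part. Its median was -0.56 in WT with 21 of 25 lower and -0.19 in LysM-DKO with 18 of 25 lower. Fos was 4620, 3168, 2149 and 2428 CPM and Egr1 4172, 3805, 1903 and 2187. Btg2, an antiproliferative gene on the same list, went the other way at 526, 524, 977 and 912.

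Higher with western diet and ApoE loss was a linker histone, Hist1h1e, at 23.4, 15.4, 87.9 and 89.1 CPM. Its log2 ratios were 1.91 (1.67 to 2.15) for WT and 2.52 (2.16 to 2.92) for LysM-DKO. Lymphocytes carried Hist1h1e at 48.7, 76.9, 126 and 397, above members in each library. The serotonin receptor Htr1b was 57.2, 64.7, 101 and 112, the arrestin Arrdc3 86.8, 81.4, 172 and 133, and the electron carrier Etfb 63.9, 59.8, 103 and 96.9. Fam71a and Serpinb6b were in the ranking too. Cholesterol synthesis genes had medians of -0.01 and -0.10 and lipid handling genes 0.06 and -0.19, beside 0.03 and 0.02 over all genes.

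Genes of the modulated state were high in members of 1 library, WT/ApoE-/- on western diet. The list had a median log2 ratio of 1.14 there over WT on normal diet, with 22 of 27 genes higher, and -0.34 in LysM-DKO with 9 of 26 higher. Between genotypes it was -1.09 on western diet, with 25 of 27 lower in LysM-DKO, and 0.26 on normal diet. Lumican (Lum) was 11.3, 26.7, 248 and 21.5 CPM, osteopontin (Spp1) 2.89, 1.72, 247 and 9.37, and Vcam1 74.4, 86.5, 294 and 90.4. The summed list was 5992, 6344, 8468 and 5946 in members. That library also held 850 modulated cells, outside the gate, against 37, 54 and 76 in the others.

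Lymphocytes of the same library carried these RNAs as well. After thinning to 2000 UMIs, 19.5% of its members had a Lum UMI against 21.9% of lymphocytes, and 21.7% had a Spp1 UMI against 30.7%. Unthinned, 33.3% of its members had a Lum UMI. Lum and Spp1 were thus seen in no larger a share of members than of lymphocytes and are not read as expression. Lymphocytes there were shallower before thinning, with a median of 2147.5 UMIs against 6023, so free RNA can take a larger part of their UMIs. The comparison therefore cannot place members at or under the free RNA background. Members at 3 to 3.5% contractile UMIs held Lum at 794 CPM, against 248 over all members, and the source of this RNA was not tested. Decorin (Dcn) was seen in 18.9% against 15.5%, and Vcam1 in 21.3% against 12%, but lymphocytes held more of both as summed levels, at 631 against 281 CPM for Dcn and 310 against 294 for Vcam1, so no order is read for either. Fn1 was seen in 77.4% of members against 30.7% of lymphocytes there, and its level was 1405 CPM against 1002. In WT and LysM-DKO on normal diet it was seen in 57.8 and 61.8% of members against 30.5 and 42.7% of lymphocytes, with levels of 635 and 745 CPM against 210 and 330. In LysM-DKO/ApoE-/- the share was 67.5% against 57.1%, while the level was 1002 CPM against 1141 in 26 lymphocytes, and again no order is read. Fn1 thus stood above its level in lymphocytes by both measures in 3 libraries.

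**Figure D5:**
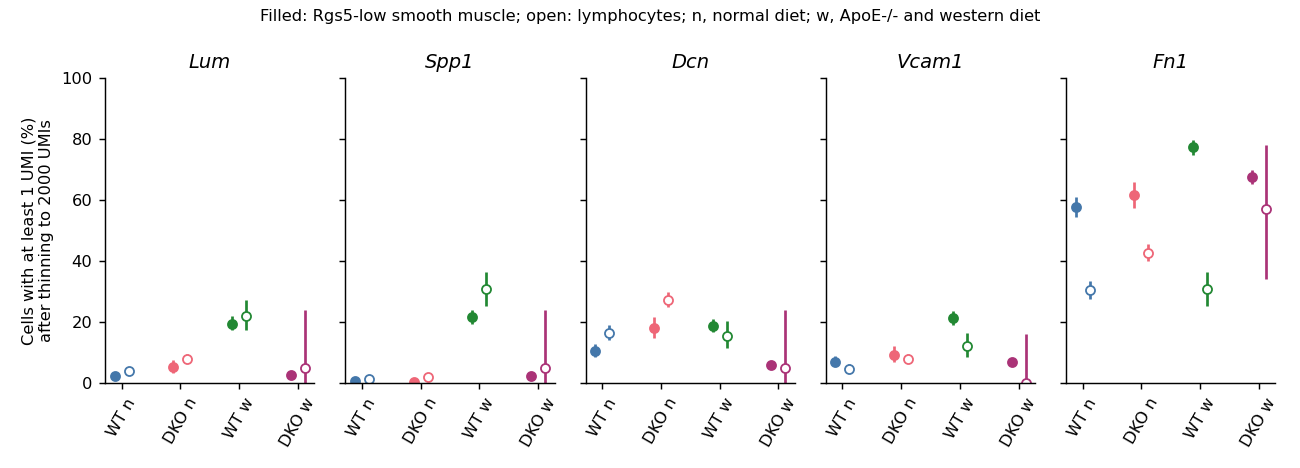
Share of cells with at least 1 UMI of each gene after thinning to 2000 UMIs, in Rgs5-low smooth muscle (filled) and lymphocytes (open) of each library, with exact binomial 95% intervals. In WT/ApoE-/- on western diet Lum and Spp1 reach 19.5 and 21.7% of members and 21.9 and 30.7% of lymphocytes, and Fn1 reaches 77.4 and 30.7%.

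The contractile limit bore on this result. With at least 5% contractile UMIs the median of the modulated list in WT was 0.69 instead of 1.14, and the Dcn ratio was -0.02 instead of 1.68. With at least 1000 UMIs, which added shallow cells of this library, the medians were 1.47 for diet in WT and -1.72 for genotype on western diet. Collagens and proteoglycans had a diet median of 0.55 in WT with 23 of 26 higher, 0.37 at the 5% limit, and 0.01 in LysM-DKO. Fn1 was 635, 745, 1405 and 1002 CPM, and the collagen gene Col3a1 762, 604, 1235 and 928, both higher in each western diet library than in the normal diet library of the same genotype. Elastin (Eln) was 1125, 1307, 1358 and 970 CPM, with no common direction.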

How the data were processed

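Single-cell RNA of mouse aorta was measured in 4 libraries. The deposited matrices hold counts of UMIs per gene and barcode, which the authors made with Cell Ranger 6.0.1 for normal diet and 6.1.2 for western diet, per the file headers. The submitters' processing notes name Cell Ranger 6.1.2, Seurat 4.1.0 and the build mm10. Parameters of cell calling are not given in the sources used here. Of 32285 features 99.6% matched GENCODE M21 by ID.

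The cells, gene lists and tests were chosen with earlier results of these data known. UMIs were summed over the cells of a class in each library. Between libraries, ratios of the sums have 0.5 UMIs added and exact binomial 95% intervals, levels have exact Poisson intervals, and no test was made. Rgs5-low and Rgs5-high sums were compared with edgeR 4.0.16 (TMM, filterByExpr, quasi-likelihood test, library as block, Benjamini-Hochberg adjustment, threshold 0.05) in R 4.3.3. On simulated data the test recovered 98.5% of 200 genes changed 1.5 fold among 12200, with 4 false calls. The levels and the spread between libraries were set in that simulation, so these values hold for its settings only. They do not check the calls of genes at low level, such as Hoxc10, or the spread over the real libraries. With a real library left out, higher calls ranged from 149 to 388 and lower calls from 162 to 274. The ratio rule recovered 100% of 200 genes changed 3 fold in each contrast, with 0 false calls, on simulated Poisson counts. Those counts held counting error only and no variation between animals or libraries, so false calls from such variation could not appear in them.

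Named genes are the gate genes, the loci of the labels, the 4 highest and the called members of each list, and ranked genes: up to 8 per direction alike in sign on both sides of the genotype or diet contrast and no lower than in other cells, and up to 10 per direction with the same sign in 4 of 4 libraries. Ribosomal protein, globin, immunoglobulin, predicted and sex-linked genes were left out of rankings.

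Lymphocytes were barcodes of at least 1000 UMIs with at least 3 UMIs of Cd79a, Ms4a1, Cd3d and Cd3e. Modulated cells had under 3% contractile UMIs, at least 2 UMIs each of Lum and Vcam1 and none of Pdgfra, Pi16 and Dpp4. Doublets were not removed. Scrublet scores (scanpy 1.11.5) marked 82, 38, 136 and 124 members, and removing them was 1 alternative. The others were other UMI, mitochondrial, contractile and level limits, thinning to 2000 UMIs, median-ratio scaling, equal weight per cell, DESeq2 1.42.0, no filter, no block, and each library left out. After the data were seen, 3 more were added: the doublet removal in the paired test, Rgs5 at 0 against at least 10 UMIs, and tests of whether the Rgs5 difference varied with diet or genotype. Some genes that the naming rule admits are not reported here.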

Additional observations from a re-analysis of the deposited data

Results flagged for a closer look

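The difference between Rgs5-low and Rgs5-high cells was tested for a change between genotypes and between diets. By diet, edgeR called 0 genes in either direction, with 746 at an unadjusted p under 0.05. By genotype it called 7 genes (edgeR adjusted p 0.00544 to 0.0321), each with a larger low minus high log2 difference in LysM-DKO than in WT, in 2 libraries against 2. The change was 2.52 for Ibsp, 2.23 for H2-Aa, 2.23 for H2-Ab1, 1.86 for Col2a1, 1.69 for C3, 1.56 for Serpina3n and 1.34 for Lum. Ibsp and Col2a1 are known from cartilage and bone, H2-Aa and H2-Ab1 encode class II antigen presenting molecules, and C3 is a complement component. Lum was 11.3, 26.7, 248 and 21.5 CPM in Rgs5-low cells and 11.2, 17.2, 478 and 15.9 in Rgs5-high cells. H2-Aa was 13.7, 41.2, 15.8 and 10.7 against 17.0, 20.4, 30.9 and 2.25. For Lum, C3, Ibsp, Col2a1 and Serpina3n the highest levels were in WT/ApoE-/- on western diet, the library that stood apart.

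Among the 3114 genes with a mean of at least 50 CPM, the genotype ratio pointed in opposite directions on the 2 diets, past 2 fold in both, for 2 genes. Genes of lower level were not searched. This difference between diets was not tested. For Lum it stood at 1.24 (log2, LysM-DKO over WT) on normal diet and -3.52 on western diet. The second ratio rests on WT/ApoE-/-, where 19.5% of members and 21.9% of lymphocytes had a Lum UMI after thinning, so it is not read as expression in these cells. For the immunoglobulin gene Igkc it was 1.70 and -8.79, and lymphocytes numbered 970, 1272, 490 and 26 in the same libraries.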

How the results depend on the processing

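The 4 contrasts rest on 1 library per group, and genes of low level are limited by the depth of sums over 526 to 1653 members. Member shares moved with the gates: 12.3, 6.56% on normal diet at 1000 UMIs, 2.75, 1.79, 7.09 and 5.61% at a contractile share of 5%, 12.7 and 7.72% on normal diet at 20% mitochondrial UMIs, and 20.3, 13.1, 24.1 and 34.8% with Rgs5 read after thinning. Genes past 2 fold numbered 34, 71, 202 and 118 at a mean of 20 CPM and 2, 15, 43 and 14 at 200, against 13, 37, 118 and 53, and 25 (11 higher, 14 lower) for genotype on normal diet at the 5% contractile share. Of the list medians 374 stayed within their counting interval and 18 did not. At the 5% share the diet medians in LysM-DKO were 0.17 for regulators, 0.19 for calcium, -0.80 for modulated, -0.0691 for immediate early, -0.38 for glucocorticoid and 0.24 for clock genes. In WT they were 0.0302 for elastic, 0.37 for collagen, 0.69 for modulated and -0.37 for immediate early genes, and the immediate early genotype medians were -0.40 and -0.19. The genotype median of collagens on western diet was -0.33 at 1000 UMIs, -0.36 after thinning and -0.32 with equal weight, that of modulated genes -1.72 at 1000 UMIs (diet in WT 1.47), and that of immediate early genes on normal diet -0.21 with equal weight. The Dcn ratio for diet in WT reversed to -0.0248 at the 5% share. Median-ratio scaling shifted ratios by at most 0.014 in size. Between the Rgs5 classes, higher and lower calls were 165 after thinning (lower 190), 158 and 149 at the 5% share, 140 and 130 by DESeq2, 456 lower without a filter, and 149 to 388 and 162 to 274 with a library left out. The replicate block was the library: with no replicate block the calls were 1 and 11. No named gene of that comparison changed direction, and of its named genes over all settings 425 values kept the side of the threshold and 103 lost the call, 43 of them with no block. The causes were not tested.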

Other observations

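Genes near the loci of the labels were looked up after their values were seen. Mfap4 lies on chromosome 11 (61485431 to 61488900, GRCm38), 28.3 kb from Epn2 (61517249 to 61579687). Of the 4 neighbours of Epn2 within 500 kb and at 20 CPM or more, Mfap4 was the only 1 with a log2 genotype ratio of at least 0.5 on both diets, and of the 3 and 4 such neighbours of Epn1 and Lyz2 none was.

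Among clock genes Arntl, an activator of the clock, was 36.7, 33.6, 16.7 and 17.8 CPM and its output gene Dbp 15.2, 19.1, 46.4 and 38.3. The hour at which aortas were taken is not given in the labels.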
